A study of Mus musculus with 11 samples.

Results

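The T cell and NK cell genes described here are 39 genes that mark T cells, natural killer (NK) cells and their effector functions, measured in 11 mouse lymphomas. They were taken by gene symbol from the probe annotation of the arrays, which cover 31473 genes, and all 39 had at least 1 probe. In total they had 51 probes, and 27 of the genes had a single probe. Each gene stands by its brightest probe, given as the log2 intensity minus the 75th percentile of that array. A gene entered the tests if its probe was well above background on at least 3 arrays, which 33 of the 39 did, among 20181 genes in all. Because that filter keeps a gene through the tumours in which it is high, counts over the 33 do not speak for all 39.

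PCL stands here for plasma cell lymphoma (4 tumours), MCL for mantle cell lymphoma (3 tumours) and BL for Burkitt lymphoma (4 tumours), and a tumour is named by its type and array position, PCL1 being the first PCL. All came from lymph nodes of Black 6 mice of the genotype c-myc-3'RR/p53+/-, in which the heavy chain locus of the immunoglobulins lends its 3' regulatory region to a c-myc transgene, so that it is active in B lineage cells, and 1 p53 allele is lost. Every tumour therefore carried both alterations, and no lymph node without a tumour was among the samples. The labels give a mature B cell stage for all of them but no age or sex, and do not say that each tumour came from its own mouse, so the p-values cover no more than the spread among these samples, which may be technical. The 3 types lay on 1 slide each, and type and slide cannot be told apart. The host's T cells and NK cells were not removed from the tissue, and in such bulk RNA fewer cells of a type and less RNA per cell cannot be told apart.

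RNA integrity numbers were 8 to 10, and each array had 55.5% to 62.8% of its 43020 non-control spots well above background. Having 11 arrays in all limits the precision. Of 15 B cell markers, 15 were well above background on every array, among them Ms4a1, Cd79a and Cd79b. The lowest log2 signal that was well above background on an array lay between -6.56 and -5.10. Values not well above background on their own array have no order, and the order of others near that range is uncertain.

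A T cell recognises antigen through its receptor, whose signal is carried inward by the CD3 chains and the zeta chain. The co-receptors CD4 and CD8 bring in the kinase Lck, which activates the kinase Zap70, which phosphorylates the adaptor Lat. Activated cells display co-stimulatory and checkpoint receptors, and cytotoxic T cells and NK cells kill with perforin and granzymes. In a lymph node that holds a B cell tumour, host lymphocytes are a usual source of these transcripts. B lineage cells of the mouse can also express some of them, such as Cd2 and Il2ra. Which cells the signals came from was not tested.

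Between the lymphoma types, few of these genes differed. Cd4, the co-receptor of helper T cells, Foxp3, the transcription factor of regulatory T cells, and Prf1, the gene of perforin, were lower in PCL than in MCL and higher in MCL than in BL. They were the 3 of 33 genes that passed in the comparison of PCL with MCL (limma, Benjamini-Hochberg adjusted p under 0.05 over 20181 genes), in which 6.94% of all genes passed and 4.82% passed as lower in PCL. The same 3 of 33 passed between MCL and BL, where 6.64% of all genes passed and 6.45% passed as higher in MCL. Between PCL and BL, 0 of 33 passed in limma, against 0.659% of all genes, and 2 (Lck and Tcf7) had an unadjusted p under 0.05, as had 17.6% of all genes. Unadjusted p-values under 0.05 were found for 8 of 33 between PCL and MCL, where 24.4% of all genes had one, and for 5 of 33 between MCL and BL, where 18.5% had one. A moderated F test for any difference among the types again called these 3, with 8.43% of all genes called. The shares of T cell and NK cell genes that passed thus lay near those of all genes.

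Medians of the log2 differences over the 33 genes were near 0: -0.01 for PCL minus MCL, -0.00 for PCL minus BL and -0.03 for MCL minus BL, beside -0.03, 0.09 and 0.06 over all genes. The tumours of PCL and MCL did not overlap for 6 of the 33 genes, against 22.9% of all genes. Of these 6 Klrd1 was higher in each PCL tumour (9.07% of all genes), and Cd3e, Cd4, Foxp3, Gzmk and Prf1 were lower in each (13.8%). Klrd1 was not above background in PCL3, MCL1 and MCL3, so its order has little meaning. PCL and BL overlapped for all 33, where 6.64% of all genes lay without overlap higher and 4.40% lower in PCL. MCL lay above BL without overlap for Cd4, Foxp3 and Prf1, where 17.7% of all genes did not overlap and 14.0% lay higher in MCL. The plot of differences by gene shows how wide most of the intervals were.

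**Figure D1:**
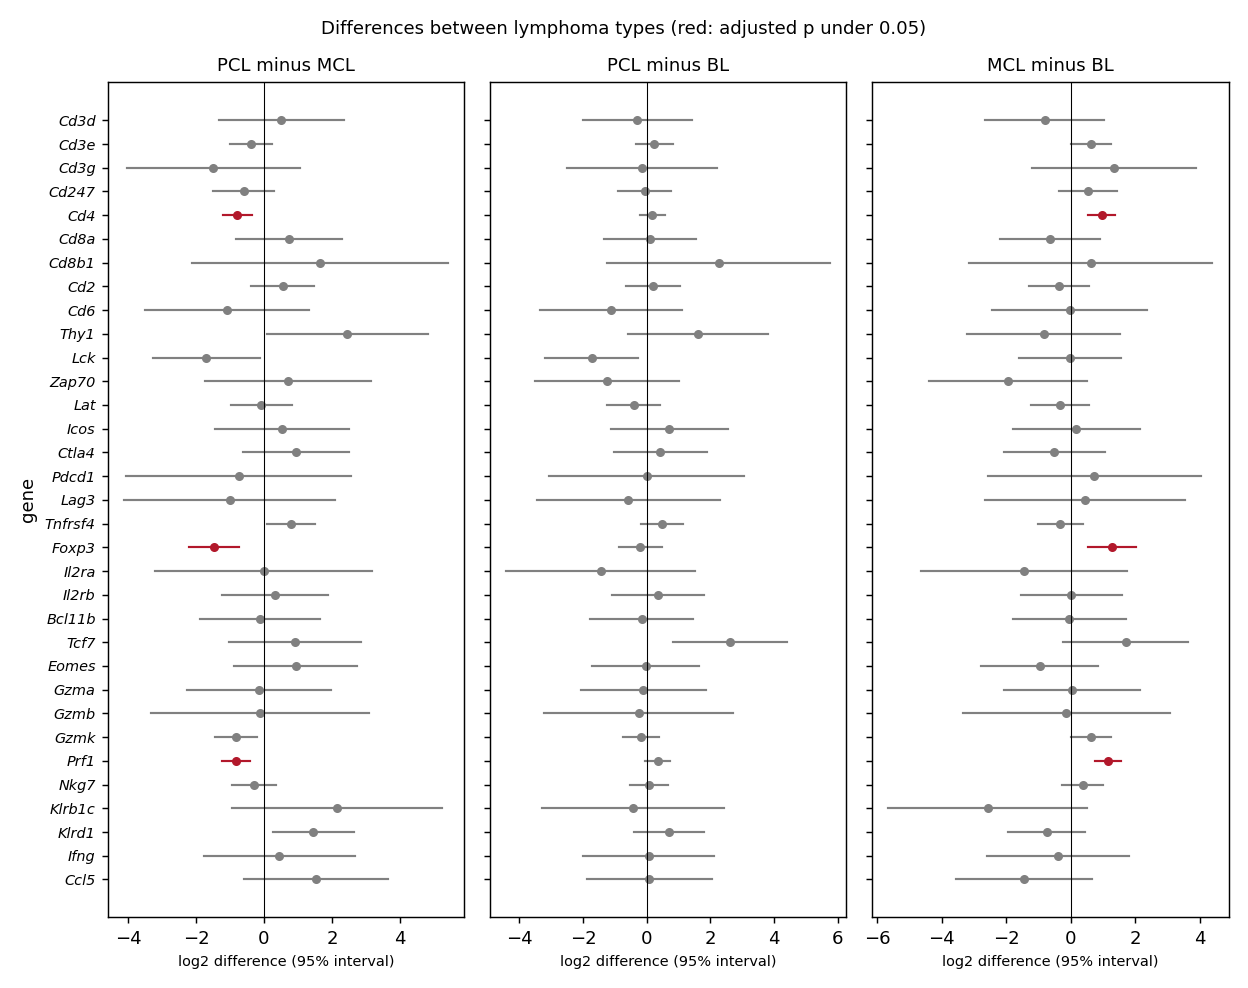
Log2 difference between lymphoma types (x axis) for each of the 33 genes tested (y axis), as PCL minus MCL, PCL minus BL and MCL minus BL, with 95% intervals from limma. Cd4, Foxp3 and Prf1 (red, adjusted p under 0.05) are lower in PCL than in MCL and higher in MCL than in BL, and no gene is red for PCL minus BL.

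Log2 signals of Cd4 were 0.98, 1.06, 1.27 and 1.34 in PCL1 to PCL4, 2.18, 2.04 and 1.62 in MCL1 to MCL3, and 1.00, 0.83, 1.19 and 0.92 in BL1 to BL4. Each MCL tumour lay above every PCL and every BL tumour, and PCL and BL overlapped. Cd4 averaged 1.16 ± 0.17 in PCL and 1.95 ± 0.29 in MCL (SD, n = 4 and 3), a log2 difference of -0.78 ± 0.19 (SE, adjusted p = 0.0368). Against 0.99 ± 0.15 in BL (SD, n = 4), MCL was higher by 0.96 ± 0.19 (SE, adjusted p = 0.0142). The probe lies at chr6:124814711-124814770 (mm9, the build of the array annotation). A fainter Cd4 probe was above background in 1 of 4 PCL, 3 of 3 MCL and 4 of 4 BL tumours, and so says little of PCL. Fitted with all 25296 probes above background after the data had been seen, it was higher in MCL than in BL by 0.73 (adjusted p = 0.0459). Its BL signals, from -5.82 to -5.51, lay near background.

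Log2 signals of Foxp3 were -3.60, -4.84, -4.19 and -4.01 in PCL1 to PCL4, -2.65, -2.52 and -2.88 in MCL1 to MCL3, and -4.20, -4.38, -3.24 and -4.02 in BL1 to BL4. All MCL tumours lay above the other tumours, with MCL2 the highest and PCL2 the lowest. The mean was -4.16 ± 0.52 in PCL and -2.68 ± 0.19 in MCL (SD, n = 4 and 3), a log2 difference of -1.48 ± 0.33 (SE, adjusted p = 0.0311), or 2.78-fold lower in PCL. BL averaged -3.96 ± 0.50 (SD, n = 4), and MCL was higher than BL by 1.28 ± 0.33 (SE, adjusted p = 0.049), close to the threshold. With normexp background correction the Foxp3 differences were -0.56 and 0.57 (adjusted p = 0.561 and 0.888). Between MCL and BL its call was lost in 17 of 23 alternative settings. The single Foxp3 probe lies at chrX:7172301-7172360 (mm9).

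Log2 signals of Prf1 were -0.23, -0.45, 0.06 and -0.03 in PCL1 to PCL4, 0.84, 0.71 and 0.41 in MCL1 to MCL3, and -0.50, -0.63, -0.31 and -0.59 in BL1 to BL4. The MCL tumours were again the 3 highest, and BL2, BL4 and BL1 the 3 lowest. PCL averaged -0.16 ± 0.22 and MCL 0.65 ± 0.22 (SD, n = 4 and 3), a log2 difference of -0.82 ± 0.18 (SE, adjusted p = 0.0311). The difference of MCL from BL, which averaged -0.50 ± 0.14 (SD, n = 4), was 1.16 ± 0.18 (SE, adjusted p = 0.00723), 2.23-fold higher in MCL, and kept its call in 21 of 23 alternative settings. Between PCL and MCL the call of Prf1 was lost in 9 of 23. PCL minus BL was 0.34 ± 0.17 (SE, adjusted p = 0.334). The single Prf1 probe lies at chr10:60766941-60767000 (mm9).

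**Figure D2:**
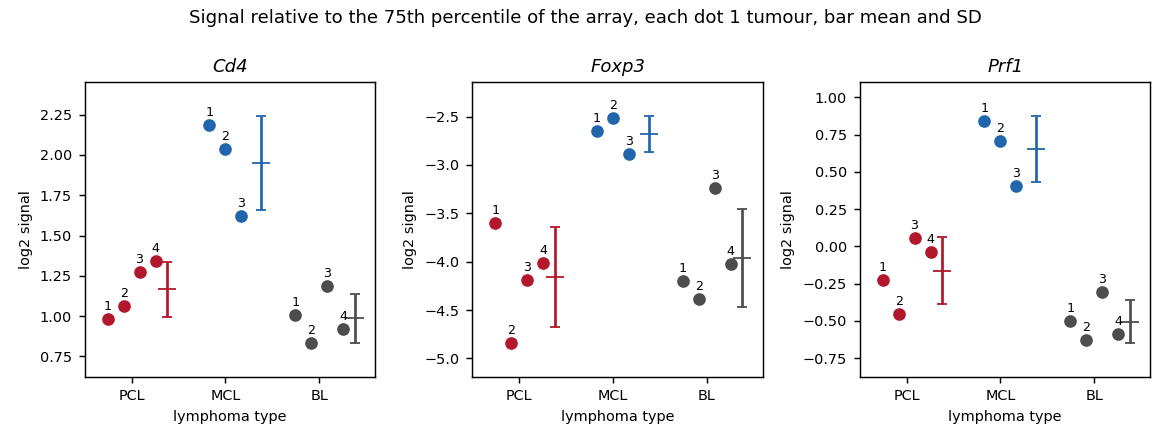
Log2 signal relative to the 75th percentile of the array (y axis) of Cd4, Foxp3 and Prf1 in each PCL, MCL and BL tumour (x axis, dots numbered by replicate), with the mean and SD as bars. For each of the 3 genes the MCL tumours lie above all PCL and BL tumours.

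Calls between PCL and MCL rested on several single tumours. Without PCL2, PCL3, PCL4, MCL1 or MCL2, 0 of the 33 genes passed in that comparison, with 333, 551, 338, 693 and 476 genes called in all. These were 1.65%, 2.73%, 1.67%, 3.43% and 2.36% of all genes. Without MCL1 only Prf1 of the 33 passed between MCL and BL, beside 3.4% of all genes. With normexp correction 0 of 33 passed in each comparison, where 0.976% of all genes passed for PCL minus MCL, 0.0644% for PCL minus BL and 0.317% for MCL minus BL. Array weights, named below for single genes, raised the share of all genes that passed to 21.9% for PCL minus MCL and 10.8% for PCL minus BL. These weights were estimated from the same signals and give no independent measure of quality. PCL1 had the lowest weight, 0.38, and PCL2 and PCL4 had 2.79 and 2.72. The log2 differences of Cd4 and Prf1 moved little over the 23 alternatives: from -0.95 to -0.62 for Cd4 and from -0.94 to -0.72 for Prf1 between PCL and MCL. Their calls in that comparison were nevertheless lost in 10 and 9 of the 23, and that of Foxp3 in 10. Between MCL and BL the call of Cd4 was lost in 5. Markers of other cells also differed between the types. Of 15 B cell markers, 3 passed as lower in PCL than in MCL, while 9 of the 15 had a positive difference and the median was 0.11. The list's summed signal was 263 to 335 in PCL, 400 to 411 in MCL and 362 to 448 in BL, in multiples of the 75th percentile of an array. Of 15 macrophage and monocyte markers 2 passed as higher in PCL than in MCL, with a median difference of 2.59 and summed signals of 13.9 to 45.4 in PCL, 14.2 to 22.9 in MCL and 11.8 to 23.7 in BL. Their part in the differences of Cd4, Foxp3 and Prf1 was not tested.

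For the promoters, RefSeq sequences of build GRCm38.p6 (250 bases before to 50 after each start) were matched by symbol for 28 of the 39 genes, with 34 starts. Those of the called genes Foxp3 and Prf1 are shown, the first of 2 listed starts for Foxp3, together with Gzmb and Cd3d, which carry the tumour-to-tumour pattern below. Capitals mark 3 motifs searched on both strands: TGTGGT of RUNX factors, GGAAGT of ETS factors and the E box CAGGTG; no 2 of them overlap in the sequences shown.
Prf1: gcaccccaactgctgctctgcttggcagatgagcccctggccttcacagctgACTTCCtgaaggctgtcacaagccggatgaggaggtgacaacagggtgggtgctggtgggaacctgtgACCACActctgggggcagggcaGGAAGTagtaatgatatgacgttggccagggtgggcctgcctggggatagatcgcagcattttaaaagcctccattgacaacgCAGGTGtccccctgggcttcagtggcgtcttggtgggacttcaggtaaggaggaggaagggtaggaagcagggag
Foxp3: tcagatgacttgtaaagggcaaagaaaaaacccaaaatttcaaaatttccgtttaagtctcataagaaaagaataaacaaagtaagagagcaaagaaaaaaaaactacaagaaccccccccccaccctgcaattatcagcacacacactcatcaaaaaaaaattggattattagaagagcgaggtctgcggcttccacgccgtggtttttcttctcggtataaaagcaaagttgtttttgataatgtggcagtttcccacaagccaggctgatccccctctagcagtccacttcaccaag
Gzmb: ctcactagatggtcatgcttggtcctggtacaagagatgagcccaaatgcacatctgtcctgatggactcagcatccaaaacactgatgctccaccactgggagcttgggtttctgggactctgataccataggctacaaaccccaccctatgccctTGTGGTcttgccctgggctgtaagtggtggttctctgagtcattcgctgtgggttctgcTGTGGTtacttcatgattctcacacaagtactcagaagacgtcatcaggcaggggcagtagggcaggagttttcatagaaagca
Cd3d: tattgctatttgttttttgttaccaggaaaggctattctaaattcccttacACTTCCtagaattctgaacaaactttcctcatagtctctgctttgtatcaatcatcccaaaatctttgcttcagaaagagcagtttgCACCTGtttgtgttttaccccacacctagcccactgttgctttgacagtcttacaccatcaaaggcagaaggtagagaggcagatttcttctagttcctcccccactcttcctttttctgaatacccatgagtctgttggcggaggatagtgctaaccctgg
The Prf1 sequence is chr10:61297586-61297885, plus strand, that of Foxp3 is chrX:7579426-7579725, plus strand, that of Gzmb is chr14:56262285-56262584, minus strand, and that of Cd3d is chr9:44981536-44981835, plus strand. Prf1 holds 1 RUNX motif, 2 ETS motifs and 1 E box, Gzmb 2 RUNX motifs, and Cd3d 1 ETS motif and 1 E box, and none of the 3 is in the Foxp3 window. Over the 34 promoters the RUNX motif was in 11, the ETS motif in 15 and the E box in 14. Among all 32851 promoters of the table the shares were 16.8%, 23.8% and 20.2%. These matches are letters in a window, not sites of binding.

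Tumours of the same type differed widely in these genes. Of the 33 genes 18 were above background on every array, and the ranges of the other 15 run down into background. The 18 genes had a median range of 2.69 log2 units over the 11 tumours, against 1.38 for all 15446 genes above background on every array. Over all 33 the median was 3.62, background values included. Within PCL the median SD of the 18 genes was 0.49, within MCL 0.76 and within BL 0.69, beside 0.28, 0.32 and 0.36 over the 15446 genes. An SD above 1 was found for 5 of the 18 in PCL, 8 in MCL and 5 in BL, against 4.62%, 8.03% and 6.86%. No test was made of these spreads.

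MCL1 stood high and MCL3 low. MCL1 was the highest of the 11 tumours for 14 of the 33 genes, where it was the highest for 11.9% of all genes, and the lowest for 0. Among the 18 genes above background everywhere it was the highest for 7, against 11.3% of the 15446 genes. MCL3 was the lowest for 6 of these 18, against 8.16%. It also had the lowest value for 5 genes that were not above background there, where the order has no meaning. Of the 18 genes MCL1 exceeded MCL3 for 16, for 9 of them by more than 2-fold, while 48.4% of the 15446 genes were higher in MCL1.

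Among the BL tumours, BL1 and BL3 were high and BL2 low. BL2 was the lowest of all tumours for 5 of the 18 genes, where this held for 12.4% of the 15446 genes, and the highest for 0. Another 7 genes had their lowest value in BL2 without being above background there. BL1 exceeded BL2 for 14 of the 18, for 7 by more than 2-fold, against 52.6% of the 15446 genes higher in BL1. BL3 exceeded BL4 for 14 as well, for 6 by more than 2-fold, against 53.3%. Between PCL1 and the other PCL tumours the 18 genes had no common direction. PCL1 was above PCL2 for 10, above PCL3 for 8 and above PCL4 for 10. Of the 15446 genes 54.9%, 46.6% and 53.7% were higher in PCL1.

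After subtraction of each gene's mean over all tumours, the median of the 33 genes was -0.09, 0.03, -0.03 and 0.03 in PCL1 to PCL4. It was 0.88, -0.23 and -0.66 in MCL1 to MCL3, and 0.63, -0.82, 0.73 and -0.34 in BL1 to BL4. The number of the 39 genes that were well above background was lowest, 23, in MCL3 and BL2 and highest, 35, in BL1. The share of all spots well above background differed little, at 61.2% in MCL1, 60.5% in MCL3, 62.8% in BL1, 59.5% in BL2 and 59.1% in BL3. Over the 18 genes above background on all arrays, MCL1 had a median of 0.58, MCL3 -0.44, BL1 0.40, BL2 -0.46 and BL3 0.40. With normexp correction the order was another one, with 0.48 in PCL3, 0.41 in BL4, 0.40 in MCL1 and 0.08 in BL1, and MCL3 and BL2 lowest at -0.76 and -0.75.

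**Figure D3:**
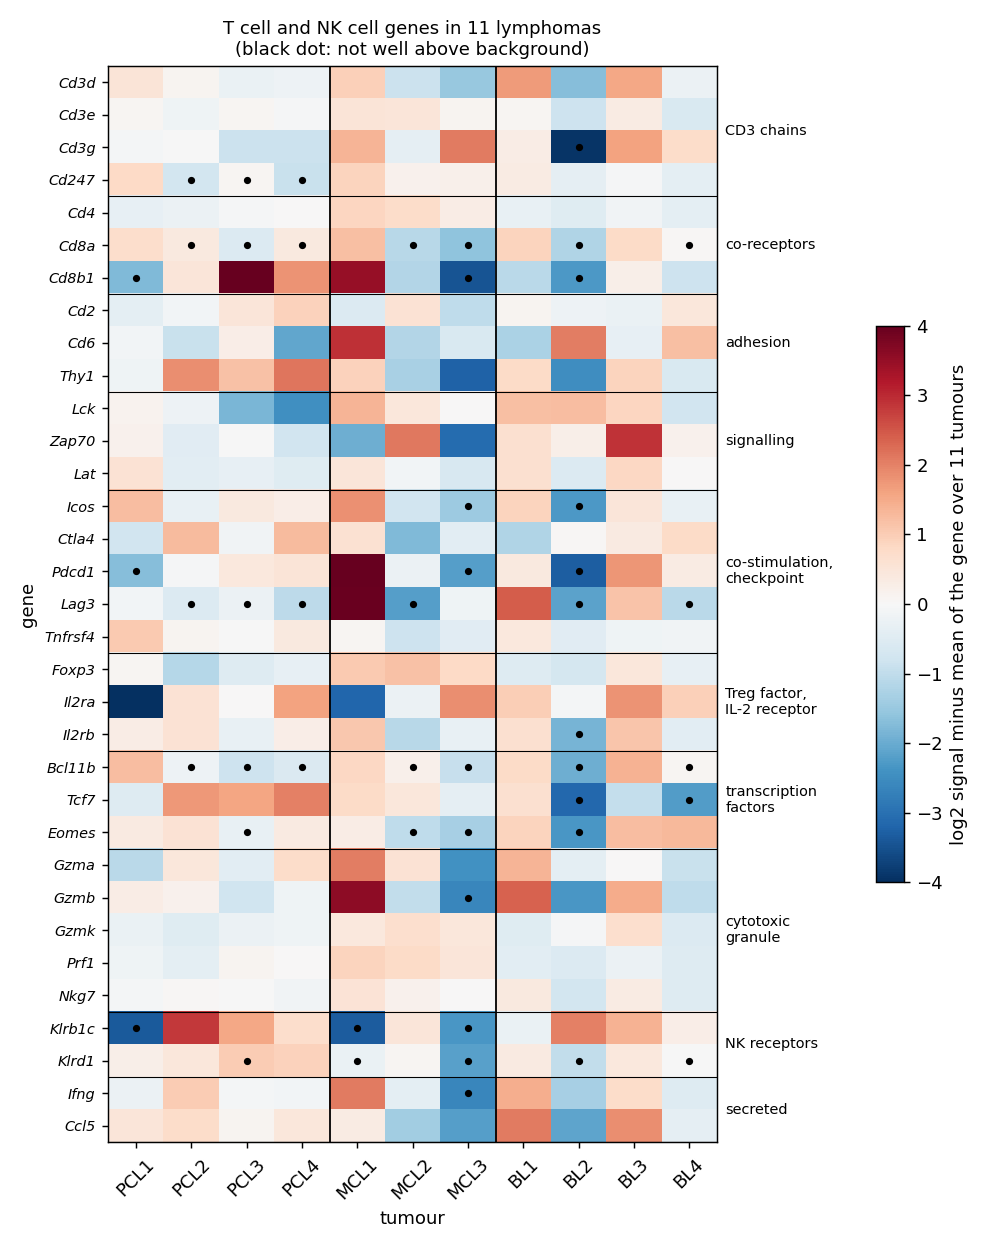
Heat map of the 33 genes tested (rows, grouped by role) in the 11 tumours (columns), as log2 signal minus the gene's mean over the tumours, with colours ending at 4 and -4 and black dots at signals not well above background. MCL1, BL1 and BL3 are mostly above the gene means and MCL3 and BL2 mostly below, with median values of 0.88, 0.63, 0.73, -0.66 and -0.82.

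Other T cell genes, from a list of 53 that holds no gene of the 39, followed the same tumours. Its 30 genes tested had a centred median of 1.00 in MCL1, 0.52 in BL1, 0.40 in BL3 and -0.91 in BL2, but of -0.24 in MCL3. Of the 30, 14 were above background on all arrays, so the low medians are taken partly over background values. The filter keeps genes of each list through the tumours in which they are high. The 22 further NK cell genes, 12 of them above background on all arrays, had a median of 0.46 in MCL1, -1.38 in MCL3 and -0.65 in BL2. Chemokines that attract T and NK cells, 10 of 12 tested and 7 above background on all arrays, had 1.10 in MCL1, -0.03 in MCL3, 0.19 in BL1, -1.17 in BL2 and 0.78 in BL3. The 8 dendritic cell markers were likewise highest in MCL1 (0.97) and lowest in BL2 (-0.43), as were the 20 genes for ligands of T and NK receptors (0.93 and -0.56). Macrophage and monocyte markers were highest in PCL2 and lowest in MCL2. They were at -1.21, 2.74, 1.31 and 1.77 in PCL1 to PCL4, 0.25, -2.05 and -1.53 in MCL1 to MCL3, and -0.61, -0.34, 0.01 and -0.38 in BL1 to BL4. B cell markers stayed between -0.48 in PCL2 and 0.57 in BL3.

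**Figure D4:**
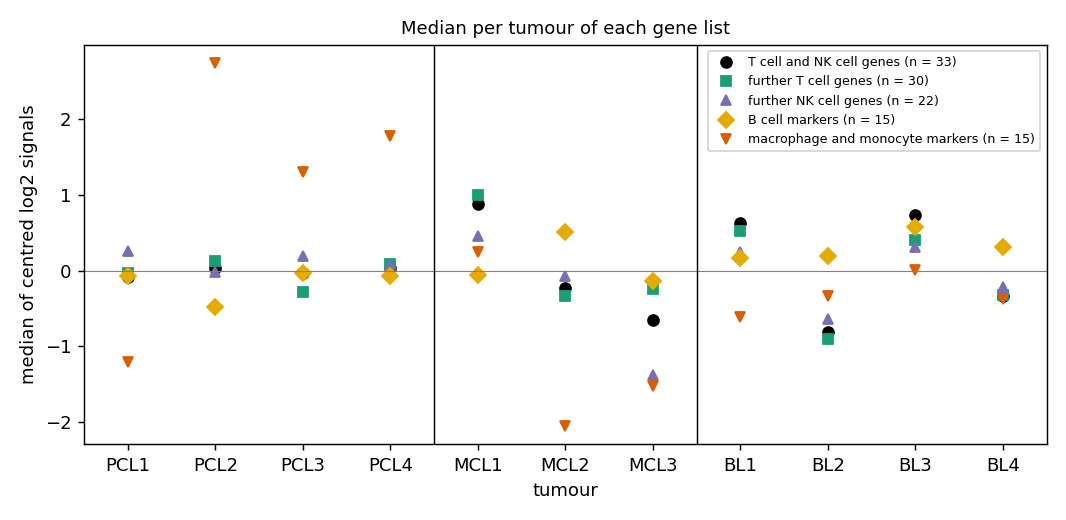
Median over each gene list (y axis) of log2 signals after subtraction of each gene's own mean, for each tumour (x axis), with the number of genes tested in the legend. The T cell and NK cell genes and the further T cell genes are both highest in MCL1 and lowest in BL2, while the macrophage and monocyte markers are highest in PCL2.

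The CD3 chains transmit the signal of the T cell receptor. None of the 4 passed a comparison between types in limma, and Cd3e alone had an unadjusted p under 0.05, for MCL minus BL (log2 difference 0.63). Log2 signals of Cd3d, the delta chain, were -2.11, -2.51, -2.89 and -2.82 in PCL1 to PCL4, -1.67, -3.48 and -4.13 in MCL1 to MCL3, and -0.91, -4.32, -1.08 and -2.85 in BL1 to BL4. They were highest in BL1 and BL3, and lowest in BL2 and MCL3, with PCL within that span. Those of Cd3e, the epsilon chain, were -0.53, -0.78, -0.54 and -0.66 in PCL1 to PCL4, -0.09, -0.13 and -0.51 in MCL1 to MCL3, and -0.53, -1.43, -0.29 and -1.23 in BL1 to BL4. Each MCL tumour was above each PCL tumour, and PCL minus MCL was -0.38 ± 0.28 (SE, adjusted p = 0.427).

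For Cd3g, the gamma chain, the values were -2.94, -2.87, -3.71 and -3.70 in PCL1 to PCL4, -1.49, -3.21 and -0.75 in MCL1 to MCL3, and -2.53, -6.78, -1.22 and -2.10 in BL1 to BL4. MCL3 was here the highest tumour, unlike for Cd3d, and BL2 was not well above background. The differences were -1.49 ± 1.14 (SE, adjusted p = 0.461) for PCL minus MCL and 1.34 ± 1.14 (SE, adjusted p = 0.617) for MCL minus BL. Cd247, the zeta chain, was dim, from -5.91 in PCL4 to -4.14 in MCL1, and above background in 1 of 4 PCL, 3 of 3 MCL and 4 of 4 BL tumours.

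Of the co-receptors, Cd8a and Cd8b1 encode the chains of CD8, carried by cytotoxic T cells. Cd8a was dim, at -5.48, -5.79, -6.73 and -5.79 in PCL1 to PCL4, -4.99, -7.28 and -7.80 in MCL1 to MCL3, and -5.29, -7.38, -5.42 and -6.14 in BL1 to BL4. It was above background in 4 tumours only, PCL1, MCL1, BL1 and BL3. Cd8b1 was at -6.07, -3.80, 0.26 and -2.49 in PCL1 to PCL4, -0.81, -5.46 and -7.74 in MCL1 to MCL3, and -5.37, -6.59, -4.06 and -5.14 in BL1 to BL4. It was highest in PCL3 and MCL1, and was not above background in PCL1, MCL3 and BL2. PCL3 was at least 6.21 log2 units above MCL3, counted from the lowest signal well above background on the MCL3 array. PCL overlapped with both other types, and PCL minus BL was 2.26 ± 1.57 (SE, adjusted p = 0.495), with a 95% interval of -1.23 to 5.76. Cd8a and Cd8b1 did not follow each other in PCL3, where Cd8a was not well above background.

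Cd4, Cd8a, Cd8b1, Lag3, Klrb1c, Klrd1 and Klrk1 lie on mouse chromosome 6, and 6 of these 7 were tested. The 741 other chromosome 6 genes had a centred median of 0.05, -0.35, -0.43 and -0.46 in PCL1 to PCL4, 0.11, 0.20 and 0.19 in MCL1 to MCL3, and 0.41, 0.03, 0.11 and 0.03 in BL1 to BL4. The 6 tested genes had a centred median of -0.22, 0.42, 0.48 and 0.55 in PCL1 to PCL4. It was 1.04, -0.52 and -1.90 in MCL1 to MCL3, and 0.05, -1.09, 0.60 and -0.20 in BL1 to BL4. Cd4 averaged 1.16 in PCL, 1.95 in MCL and 0.99 in BL. Within PCL it was at 0.98, 1.06, 1.27 and 1.34 in PCL1 to PCL4. The part of the chromosome-wide shift of PCL2 to PCL4 in the difference of Cd4 between PCL and MCL was not tested.

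Of the surface adhesion molecules, Thy1, a glycoprotein on all mouse T cells, differed most. Its log2 signals were -2.12, -0.09, -0.78 and 0.20 in PCL1 to PCL4, -1.02, -3.25 and -5.17 in MCL1 to MCL3, and -1.18, -4.44, -1.07 and -2.55 in BL1 to BL4. PCL2, PCL3 and PCL4 were the 3 highest tumours and MCL3 and BL2 were lowest, but PCL1 fell among the other types. PCL minus MCL was 2.45 ± 1.07 (SE, adjusted p = 0.193), which passed in 1 of 23 alternative settings, with array weights (adjusted p = 0.0200). Cd2, which binds CD48 on neighbouring cells, ranged from 3.08 in MCL3 to 5.02 in PCL4, and its 2 probes correlated at 0.974 over the tumours. Cd6, a receptor for the adhesion molecule ALCAM, ranged from -2.08 in PCL4 to 2.93 in MCL1 and was high in BL2 (2.05), where most of the other genes were low.

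The proximal signalling genes departed from the common order too. Log2 signals of Lck, the kinase bound to CD4 and CD8, were 2.21, 1.88, 0.24 and -0.36 in PCL1 to PCL4, 3.45, 2.53 and 2.08 in MCL1 to MCL3, and 3.28, 3.33, 2.93 and 1.32 in BL1 to BL4. PCL3 and PCL4 were the 2 lowest tumours, and BL2 was among the highest. PCL minus MCL was -1.69 ± 0.71 (SE, adjusted p = 0.176) and PCL minus BL -1.72 ± 0.65 (SE, adjusted p = 0.212), neither of which passed.

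Log2 signals of Zap70, the kinase that Lck activates, were 1.47, 0.85, 1.29 and 0.52 in PCL1 to PCL4, -0.64, 3.41 and -1.78 in MCL1 to MCL3, and 1.95, 1.53, 4.19 and 1.46 in BL1 to BL4. The MCL tumours lay far apart, with MCL2 next to the highest of all tumours and MCL3 the lowest. BL3 was the highest. The other Zap70 probe gave the same pattern (Pearson correlation 0.999 over the 11 tumours, 2 probes of 1 RNA). MCL minus BL was -1.95 ± 1.10 (SE, adjusted p = 0.403). It passed in 1 of 23 alternative settings, the one without MCL2, the highest MCL tumour (-3.50, adjusted p = 0.0392). Lat, the adaptor phosphorylated by Zap70, varied little, from -3.56 in MCL3 to -2.08 in BL3.

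**Figure D5:**
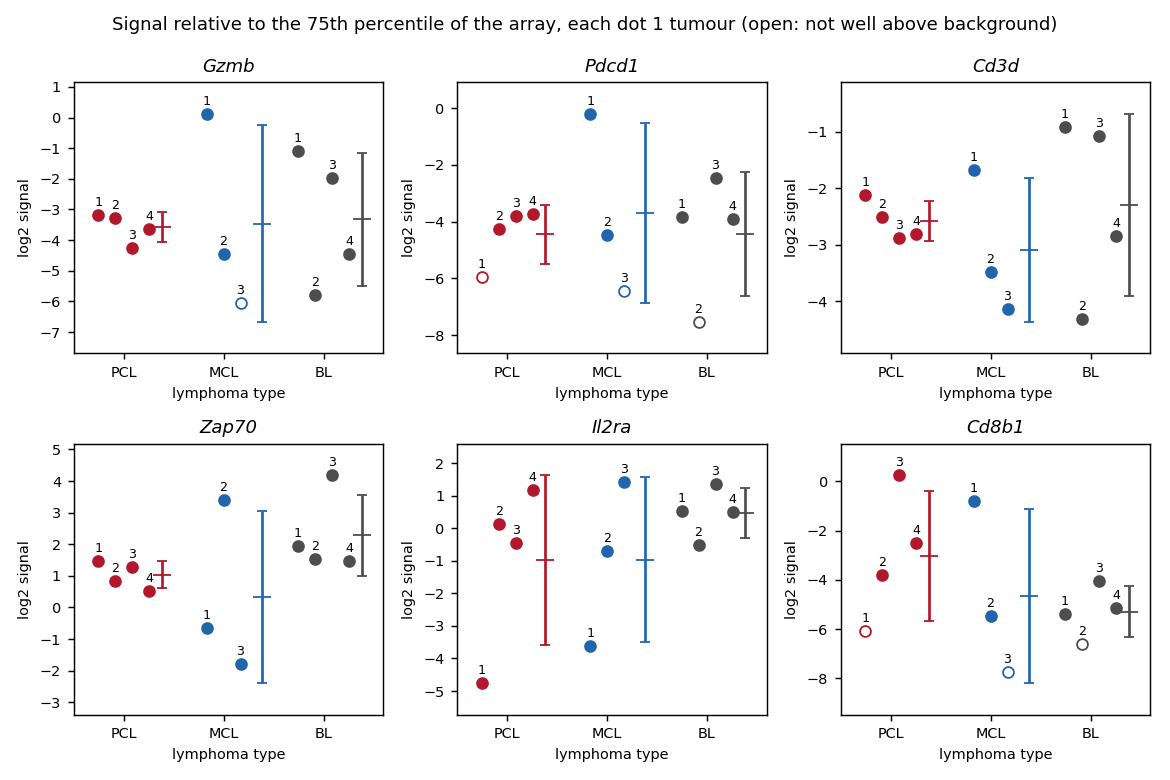
Log2 signal relative to the 75th percentile of the array (y axis) of Gzmb, Pdcd1, Cd3d, Zap70, Il2ra and Cd8b1 in each PCL, MCL and BL tumour (x axis, dots numbered by replicate, open where not well above background), with the mean and SD as bars. MCL1 lies at least 6.08 log2 units above MCL3 for Gzmb, MCL2 is the highest MCL tumour for Zap70, and PCL1 the lowest tumour for Il2ra.

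Of the co-stimulatory and checkpoint genes 5 of 6 were tested and 0 passed in limma, with 1 (Tnfrsf4, PCL minus MCL) at an unadjusted p under 0.05. Pdcd1, the gene of the checkpoint receptor PD-1, was highest in MCL1, at -0.20, and not above background in BL2, which makes MCL1 at least 6.11 log2 units higher. BL3 followed at -2.48. Lag3, another checkpoint receptor, was above background in 5 tumours: -1.38 in MCL1, -2.89 in BL1, -4.19 in BL3, -5.43 in PCL1 and -5.48 in MCL3. Icos, a co-stimulatory receptor, was highest in MCL1 (-2.36) and was not above background in MCL3 and BL2. MCL1 thus held the highest value for Pdcd1, Lag3 and Icos.

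Ctla4, a checkpoint receptor that competes with CD28, ordered the tumours otherwise, from -4.81 in MCL2 to -1.75 in PCL2 and -1.76 in PCL4. Tnfrsf4, the gene of the co-stimulatory receptor OX40, lay between -0.57 in MCL2 and 1.28 in PCL1, with PCL minus MCL at 0.78 ± 0.32 (SE, adjusted p = 0.165). Cd40lg, the CD40 ligand of helper T cells, was above background in 1 tumour, BL2, at -4.82.

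The interleukin 2 receptor genes did not move with Foxp3. Il2ra, its alpha chain, carried by regulatory and activated T cells and by some B lineage cells, had log2 signals of -4.77, 0.13, -0.44 and 1.17 in PCL1 to PCL4, -3.63, -0.69 and 1.41 in MCL1 to MCL3, and 0.52, -0.51, 1.36 and 0.49 in BL1 to BL4. PCL1 and MCL1 were the 2 lowest, more than 2 log2 units below every other tumour, although MCL1 was high for most other T cell genes. Il2rb, the beta chain shared with the interleukin 15 receptor, was highest in BL3 (-3.09) and MCL1 (-3.13), and BL2, at -6.08, was not above background.

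Among transcription factor genes, Tcf7, which encodes TCF-1 of naive and memory T cells, had log2 signals of -4.12, -1.89, -2.02 and -1.59 in PCL1 to PCL4, -2.86, -3.15 and -3.95 in MCL1 to MCL3, and -2.96, -6.74, -4.55 and -5.85 in BL1 to BL4. PCL2, PCL3 and PCL4 were the 3 highest, BL2 and BL4 were not above background, and PCL1 was below BL1. PCL minus BL was 2.62 ± 0.81 (SE, adjusted p = 0.135), the largest difference of the 33 genes in that comparison. It passed in 2 of 22 alternative settings, without PCL1 (3.19, adjusted p = 0.0484) and with array weights (3.32, adjusted p = 0.0125). In those 2 settings 5.32% and 10.8% of all genes passed. The second Tcf7 probe was above background in 3 tumours only.

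Eomes, a factor of NK cells and cytotoxic T cells, ranged from -7.64 in BL2, not above background, to -4.02 in BL4. Bcl11b, needed for T cell commitment, was above background in PCL1, MCL1, BL1 and BL3, at -4.85, -5.25, -5.32 and -4.69. Tbx21, the gene of the T helper type 1 factor T-bet, was above background in MCL1 (-3.63) and BL1 (-1.54) only. Gata3, a factor of T helper type 2 cells, was so in BL4 alone (-5.18), and neither was tested.

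Cytotoxic granule genes showed both patterns. Gzmb, a granzyme of cytotoxic T cells and NK cells, had log2 signals of -3.17, -3.27, -4.25 and -3.64 in PCL1 to PCL4, 0.13, -4.44 and -6.07 in MCL1 to MCL3, and -1.09, -5.78, -1.97 and -4.46 in BL1 to BL4. MCL1 was highest, followed by BL1 and BL3, while MCL3, not above background, and BL2 were lowest. The type means were -3.58 ± 0.49 in PCL, -3.46 ± 3.21 in MCL and -3.33 ± 2.17 in BL (SD, n = 4, 3 and 4), so the SD within MCL and BL far exceeded the differences between types. Gzma, granzyme A, had log2 signals of -3.79, -2.28, -3.14 and -1.99 in PCL1 to PCL4, -0.69, -2.14 and -5.14 in MCL1 to MCL3, and -1.35, -3.11, -2.72 and -3.62 in BL1 to BL4. It was likewise highest in MCL1 and BL1 and lowest in MCL3.

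Gzmk, granzyme K, had log2 signals of -3.08, -3.31, -3.07 and -3.01 in PCL1 to PCL4, -2.39, -2.14 and -2.36 in MCL1 to MCL3, and -3.33, -2.88, -2.15 and -3.38 in BL1 to BL4. All 3 MCL tumours were above all PCL tumours, but BL3 was as high as MCL2. PCL minus MCL was -0.81 ± 0.28 (SE, adjusted p = 0.107). It passed in 3 of 23 alternative settings: without BL3 (adjusted p = 0.0386), with array weights (0.0434) and with only those 2 types fitted (0.0475).

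The 2 probes of Nkg7, a granule protein of NK cells and cytotoxic T cells, disagreed. The brighter probe ranged over 1.29 log2 units and differed between PCL and MCL by -0.30 (95% interval -0.94 to 0.35). The fainter one had log2 signals of -3.34, -2.51, -3.32 and -2.85 in PCL1 to PCL4, -1.74, -4.49 and -6.10 in MCL1 to MCL3, and -1.43, -5.75, -1.29 and -3.95 in BL1 to BL4. As for Gzmb, MCL1, BL1 and BL3 were high and MCL3 and BL2 low. PCL minus MCL was 1.10 by this probe (adjusted p = 0.616 in the fit of all probes), opposite in sign to the brighter one. Fasl, the Fas ligand, was above background in MCL1 (-4.49) and BL1 (-3.70) only and was not tested.

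Of the NK receptor genes 2 of 4 were tested. Klrd1, the gene of CD94, which pairs with NKG2 receptors, had log2 signals of -5.51, -5.31, -4.74 and -4.83 in PCL1 to PCL4, -6.02, -5.68 and -7.93 in MCL1 to MCL3, and -5.39, -6.74, -5.32 and -5.76 in BL1 to BL4. Each PCL tumour was above each MCL tumour, but 5 of the 11 values were not above background (PCL3, MCL1, MCL3, BL2 and BL4). PCL minus MCL was 1.45 ± 0.54 (SE, adjusted p = 0.133), which passed in 1 of 22 alternative settings, with array weights (2.04, adjusted p = 0.0184).

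Klrb1c, the gene of the NK marker NK1.1, had log2 signals of -7.99, -1.79, -3.07 and -3.92 in PCL1 to PCL4, -7.95, -4.13 and -6.94 in MCL1 to MCL3, and -4.87, -2.62, -3.24 and -4.35 in BL1 to BL4. PCL2 was highest and BL2, low for most other genes, was second, while PCL1, MCL1 and MCL3 were not above background. The differences were 2.15 ± 1.38 (SE, adjusted p = 0.373) for PCL minus MCL and -2.57 ± 1.38 (SE, adjusted p = 0.379) for MCL minus BL. The first passed in 1 of 22 alternative settings, with array weights (adjusted p = 0.0457). Ncr1, the gene of the NK receptor NKp46, was above background in BL4 alone, at -5.56. Klrk1, the gene of NKG2D, was above background in 0 of 11 tumours.

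Of the secreted effectors, Ifng, the gene of interferon gamma, ranged from -5.91 in MCL3, not above background, to -1.23 in MCL1, with BL1 at -1.84 and PCL2 at -2.29. Ccl5 encodes a chemokine made by activated T cells and NK cells, with log2 signals of 1.22, 1.47, 0.84 and 1.18 in PCL1 to PCL4, 1.07, -0.65 and -1.47 in MCL1 to MCL3, and 2.82, -1.36, 2.58 and 0.36 in BL1 to BL4. BL1 and BL3 were highest, MCL3 and BL2 lowest, MCL1 lay in the middle, and the PCL tumours lay close together. PCL minus MCL was 1.53 ± 0.95 (SE, adjusted p = 0.358) and MCL minus BL -1.45 ± 0.95 (SE, adjusted p = 0.492), with overlap in both.

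Genes outside the 39 gave few calls. Among all genes 6.94% passed for PCL minus MCL, 0.659% for PCL minus BL and 6.64% for MCL minus BL. Of 30 further T cell genes 1 passed, Ccr8, a chemokine receptor known from regulatory T cells and T helper type 2 cells. Ccr8 was lower in PCL than in MCL (log2 difference -1.07 ± 0.21, SE, adjusted p = 0.0189) and higher in MCL than in BL by 0.98 ± 0.21 (SE, adjusted p = 0.0206). Of the 1341 genes called between MCL and BL, 1301 were higher in MCL. None of 22 further NK cell genes passed in limma, with 4, 1 and 1 at an unadjusted p under 0.05 for PCL minus MCL, PCL minus BL and MCL minus BL. Their median differences were 0.71, 0.38 and -0.14, and for PCL minus MCL 15 of the 22 were positive and 7 negative. The list is not particular to NK cells, as it shares Itgam with the macrophage and monocyte markers and Ccl3 and Ccl4 with the chemokines.

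Of 10 chemokines that attract T and NK cells, Ccl19, which draws cells to the T zone of lymph nodes, was lower in PCL than in MCL (log2 difference -1.14, adjusted p = 0.0174) and higher in MCL than in BL by 1.29 (adjusted p = 0.00828). It was also called among 10 endothelial and stromal markers, together with Kdr, a receptor of endothelial growth factor, higher in MCL than in BL by 0.82 (adjusted p = 0.0476). Of those 10 markers, however, 7 were negative for MCL minus BL (median -0.43) and 6 positive for PCL minus MCL (median 0.75). Of 20 genes for ligands of T and NK receptors, Clec2d, a ligand of the Klrb1 receptors, and Fgl1, a ligand of LAG3, were lower in PCL than in MCL (log2 differences -2.48 and -3.12, adjusted p = 0.0245 and 0.0129). Neither passed in another comparison.

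Of 15 macrophage and monocyte markers, Cd14 and Msr1 were higher in PCL than in MCL by 2.00 and 2.06 (adjusted p = 0.04997 and 0.0314), and 14 of the 15 had a positive difference. Of 15 B cell markers, Fcmr, Spib and Blk were lower in PCL than in MCL (log2 differences -3.06, -2.06 and -1.26), and Spib was also lower in PCL than in BL (-1.63, adjusted p = 0.0447). For PCL minus MCL 9 of the 15 had a positive difference. Among 12 neutrophil markers Elane was lower in PCL than in MCL (log2 difference -1.02) and higher in MCL than in BL by 1.36. It went against the rest of that list, of which 11 of 12 were positive for PCL minus MCL (median 1.55) and 10 of 12 negative for MCL minus BL (median -1.08). Of 8 dendritic cell markers Zbtb46 was higher in MCL than in BL by 0.84 (adjusted p = 0.0292), and of 4 erythroid and platelet markers Pf4 was higher in PCL than in MCL by 5.08 (adjusted p = 0.0495).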

How the data were processed

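Spot intensity was deposited by the authors for 11 one-colour arrays, extracted with Agilent Feature Extraction 10.7.3.1 with spatial and multiplicative detrending, per the file headers, and not normalized between arrays. Between 21.5% and 29.2% of spots per array hold a substitute value set for spots not above background. Here log2 processed signals were reduced by each array's 75th percentile (spot outliers and controls left out), a probe was kept if 3 or more arrays had it well above background, and the brightest probe stood for a gene. The authors' deposited value table, on a log2 scale as its values show, served as an alternative; how it was normalized is unstated.

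limma 3.58.1 (R 4.3.3) fitted a mean per type over all 11 arrays (8 residual degrees of freedom, prior 2.01), and contrasts were adjusted by Benjamini-Hochberg over 20181 genes and called under 0.05. The method was tested on simulated data with independent normal noise for each gene. These had no slide, array position or background effect, so that test says nothing of such effects. Values in every tumour are given for called genes, for 13 lineage markers where measured and for the 4 genes with the largest difference in each comparison; genes outside the 39 are named where called. The genes, lists and rules were chosen with earlier results of these data known. Replicate numbers are array positions on a slide. Same-numbered arrays correlated at -0.05 to 0.17 after removal of type means and were not treated as pairs in the main fit. Even so, 8 of 11 arrays correlated best with one of their own position among the other types. Alternatives covered background correction, normalization, the percentile, the authors' table, floors and filters on dim probes, probe averaging, the samples fitted, array weights, a variance trend, an array-position block and leaving out each array.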

Additional observations from a re-analysis of the deposited data

Results flagged for a closer look

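In 4 of 66 combinations of gene and lymphoma type that could be examined (33 genes in PCL and in BL), or 6.06%, 1 tumour stood far from the others of its type by Dixon's criterion for 4 samples at the 95% level. Chance alone marks about 1 group in 20. In PCL, PCL1 was high for the adaptor gene Lat, at -2.32 against -3.25 in the nearest PCL tumour, and low for Tcf7, at -4.12 against -2.02. PCL2 was high for Ifng, at -2.29 against -3.38. In BL, BL2 was low for Eomes, at -7.64, where it was not above background, against -4.42.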

How the results depend on the processing

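The main counts of T cell and NK cell genes called were 3 for PCL against MCL, 0 for PCL against BL, 3 for MCL against BL and 3 by the F test. With normexp correction 0 passed in all of these, with 197, 13, 64 and 129 genes called in all; without a filter on dim probes 0 passed for PCL against MCL and 1 by the F test, with 697 and 1050 called in all. With only the 2 compared types fitted 1 passed for PCL against MCL (Gzmk), beside 3.68% of all genes. In the same setting 1 passed for MCL against BL (Prf1), beside 1.44% of all genes. With array weights 7 passed for PCL against MCL, 1 for PCL against BL and 6 by the F test, beside 21.9%, 10.8% and 23.6% of all genes. With array position as a replicate block 0 passed for PCL against MCL, MCL against BL and the F test. In that fit 391, 64 and 380 genes passed in all for PCL against MCL, PCL against BL and MCL against BL. The labels do not say whether positions pair tumours. Among arrays of the other types, 8 of 11 arrays correlated best with one of their own position, a hint from the data only. What the positions stand for was not tested. Leaving out single arrays gave 0 to 4 genes for PCL against MCL, 0 to 1 for PCL against BL, 1 to 4 for MCL against BL and 0 to 4 by the F test. Over all genes these ranges were 333 to 2463, 5 to 1074 and 687 to 1373 for the 3 pairs of types. They moved by over 1.5 times without PCL1, PCL2, PCL3, PCL4, MCL1, MCL2 or MCL3 for PCL against MCL, without PCL1, PCL2, PCL3, PCL4, BL2, BL3 or BL4 for PCL against BL, and without MCL1, MCL2 or BL2 for MCL against BL. Foxp3 changed sign between PCL and BL, where it was not called, with normexp correction (0.0090), without PCL2 (0.029) and without BL3 (0.043), and ranged from -0.38 to 0.043 when single arrays were left out (main value -0.20). The centred medians near 0 moved with normexp correction in PCL1 (-0.0059), PCL2 (-0.21), PCL3 (0.48) and PCL4 (-0.15), with the authors' table in PCL2 (-0.045) and PCL3 (-0.089), and, in 2 alternatives chosen after seeing the data, in PCL2 (-0.071 with floored signals, -0.14 over the 18 genes above background on all arrays). The causes were not tested.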
